A study of Homo sapiens with 6 samples.

Results

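Acute phase proteins are plasma proteins whose amounts change during infection and injury. The 10 genes described here are LCN2, SAA1, A2M, CP, HP, FGA, FGB, FGG, CRP and HAMP, and their members on the array are all probe sets that carry only 1 of these symbols in the annotation of the Affymetrix U133 Plus 2.0 array. This gave 17 probe sets of 9 genes, out of 41091 probe sets with 1 symbol and 54675 probe sets in all. SAA1 had no such probe set, since the 2 that list it also list other symbols, and it was not analysed here. HP had 1 further probe set shared with another symbol, which was left out as well.

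The liver is the main source of these proteins. IL-6 released by macrophages and other cells binds its receptor (IL6R) and gp130 (IL6ST) on hepatocytes. The transcription factor STAT3, together with C/EBP factors and, for some genes, NF-kB, then raises the transcription of many acute phase genes, though not of all alike. Epithelial cells and carcinomas can make some of these proteins, LCN2 in particular, whereas CRP and the fibrinogen chains are largely restricted to hepatocytes.

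SKOV-3 and Caov-3, the 2 lines on the arrays, are human cells grown from ovarian carcinoma, and each was taken in 3 states. One state was untreated, one was 30 ng/ml IL-6 for 1 h, and one was siltuximab (CNTO328), an antibody against IL-6, for 4 h before 1 h of IL-6 at that dose. No antibody dose stands in the labels, and no array with siltuximab alone was analysed here. RNA of 3 flasks was combined for the 1 array of each of the 6 groups. Treatments within a line were thus compared without replicates, and precision is limited by the small number of arrays.

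All 6 arrays had the same trimmed mean signal (500.06 to 500.07), with medians of 72.8 to 89.8. The Caov-3 IL-6 array stood apart in the 5' to 3' signal ratio of ACTB, a measure of RNA integrity, at 0.494 against 0.643 to 0.767 on the other 5, and in the 28S ribosomal RNA control, at 887 against 2382 to 3307. The same ratio of GAPDH did not set that array apart, at 1.05 against 0.957 to 1.07 on the other 5. The poly-A spike-in controls were at 1.56 and 1.51 times the untreated level on the IL-6 arrays of SKOV-3 and Caov-3. Epithelial markers were at or above the median on all 3 arrays of a line for 6 of 9 genes in SKOV-3, against 9 of 9 in Caov-3, and CDH1, KRT19 and CLDN3 were below it on all SKOV-3 arrays, while MUC1 was above it on all 6 (265 and 16804 on average). Of the ovarian carcinoma markers, PAX8 was above the median on all 6 arrays, MUC16 and MSLN on all 3 arrays of Caov-3 alone, and WT1 on no array.

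Most of the acute phase probe sets gave no signal above the middle of the array. Of the 17, 1 was at or above the median on all 6 arrays (LCN2), 3 on some arrays (both A2M probe sets and HAMP), and 13 on none. Those 13 make up 76.5% of the members, whereas 33.5% of all probe sets with 1 symbol were below the median on all 6 arrays. Every probe set of CP, HP, FGA, FGB, FGG and CRP, 6 genes, stayed below the median throughout. Of the 102 member values, 46 (45.1%) lay below 17.06, the 20th percentile of all values of named probe sets, which was also the pseudocount added before taking log2. At this level a value says only that the probe set was dim, and it was not called absent, since no detection calls were used. On a single array, 1 or 2 members reached the median in SKOV-3, against 2 or 3 in Caov-3.

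**Figure D1:**
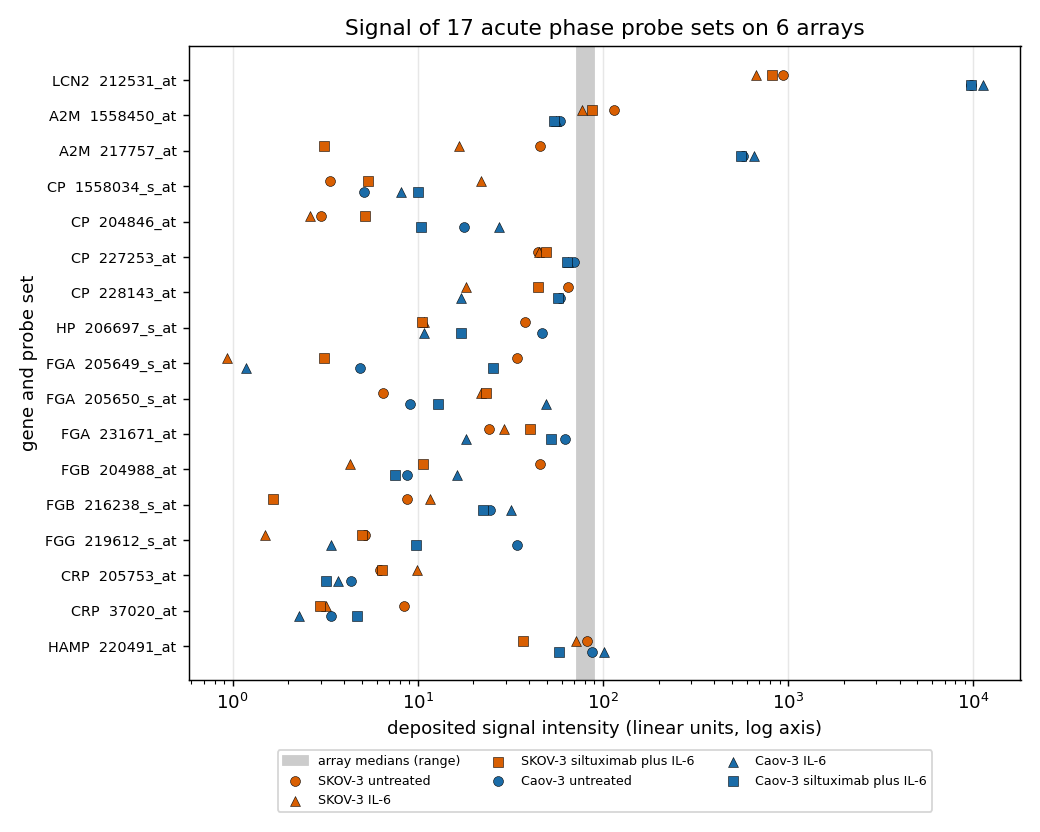
Deposited signal (log axis) of each of the 17 probe sets on the 6 arrays, with orange for SKOV-3, blue for Caov-3, and the marker shape for the treatment. The grey band spans the 6 array medians (72.8 to 89.8): LCN2 lies to its right on all arrays, A2M 217757_at on the 3 Caov-3 arrays, and 13 probe sets lie to its left throughout.

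LCN2 encodes lipocalin-2, which binds bacterial siderophores and so keeps iron from bacteria, and it was the 1 member with a strong signal in both lines. Its probe set 212531_at read 943, 669 and 818 in SKOV-3 (untreated, IL-6, siltuximab and IL-6), and 9711, 11250 and 9746 in the same order in Caov-3. The lowest Caov-3 array was 10.3 times the highest SKOV-3 array, so the lines did not overlap, while treatments within a line differed by at most 1.41 times in SKOV-3, against 1.16 times in Caov-3. These signals lay at the 80.0 to 84.0 percentile of the SKOV-3 arrays and at the 98.5 to 98.7 percentile of the Caov-3 arrays.

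The means were 810 ± 137 in SKOV-3, against 10236 ± 879 in Caov-3 (SD, n = 3 arrays, which are 3 treatments and not replicates). LCN2 was higher in Caov-3 by a log2 difference of 3.64 (SE 0.138, 95% interval 3.31 to 3.98, limma adjusted p 1.58e-05), in a fit of all 41091 named probe sets to line and treatment with Benjamini-Hochberg adjustment. In the same test 35.9% of all probe sets differed between the lines, 18.5% higher in Caov-3 and 17.4% lower. A difference between the 2 lines was thus common on these arrays.

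The stretch of the LCN2 promoter shown here holds its 1 match to the NF-kB motif. LCN2 lies on chromosome 9 (128149453 to 128153453 of GRCh38.p14). The sequence, from RefSeq, is chr9:128149258-128149307 on the plus strand, bases -195 to -146 from the gene's start, with the match, on the opposite strand, in capitals (bases -175 to -166).
LCN2: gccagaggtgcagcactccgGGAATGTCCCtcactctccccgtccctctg
The 250 bases before the gene's start were searched on both strands for 4 motifs in the 6 member genes with a promoter entry (LCN2, FGA, FGB, FGG, CRP and HAMP), A2M, CP, HP and SAA1 not being searched. The motifs were the NF-kB motif, the STAT motif TTCNNNGAA, the core CTGGGA of the IL-6 response element of fibrinogen genes, and the C/EBP motif TTNNGNAAT. Of 35116 such promoters in the table, 5.21% held the NF-kB motif, 6.57% the STAT motif, 28.7% CTGGGA and 9.85% the C/EBP motif. The matches printed here do not overlap one another. A match describes the letters and not the binding of a factor.

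A2M encodes alpha-2-macroglobulin, a plasma protein that traps proteases of all classes (chromosome 12, 9067708 to 9116229 of GRCh38.p14). Its 2 probe sets put the lines in opposite orders. Probe set 217757_at was at 45.85, 16.7 and 3.12 in SKOV-3 (untreated, IL-6, siltuximab and IL-6), below the median on all 3 arrays, and at 573, 658 and 560 in Caov-3, above it on all 3. The lowest Caov-3 array was 12.2 times the highest SKOV-3 array, and the 3 SKOV-3 values spread 14.7 times among themselves.

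The log2 difference for 217757_at was 4.13 (SE 0.363, 95% interval 3.25 to 5.01, limma adjusted p 0.000289), higher in Caov-3. Because the SKOV-3 signals are near the pseudocount, the size of this difference moved from 2.42 with a pseudocount of the median to 5.31 with a pseudocount of 1, and the adjusted p stayed at or below 0.00381 under every alternative run. Probe set 1558450_at was at 115, 77.4 and 87.4 in SKOV-3, against 58.9, 56.0 and 54.2 in Caov-3. Here SKOV-3 was the higher line with no overlap, and 2 of its arrays (untreated, siltuximab and IL-6) reached the median, but the difference of -0.57 (SE 0.304, 95% interval -1.31 to 0.17) did not pass the test (limma adjusted p 0.21).

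**Figure D2:**
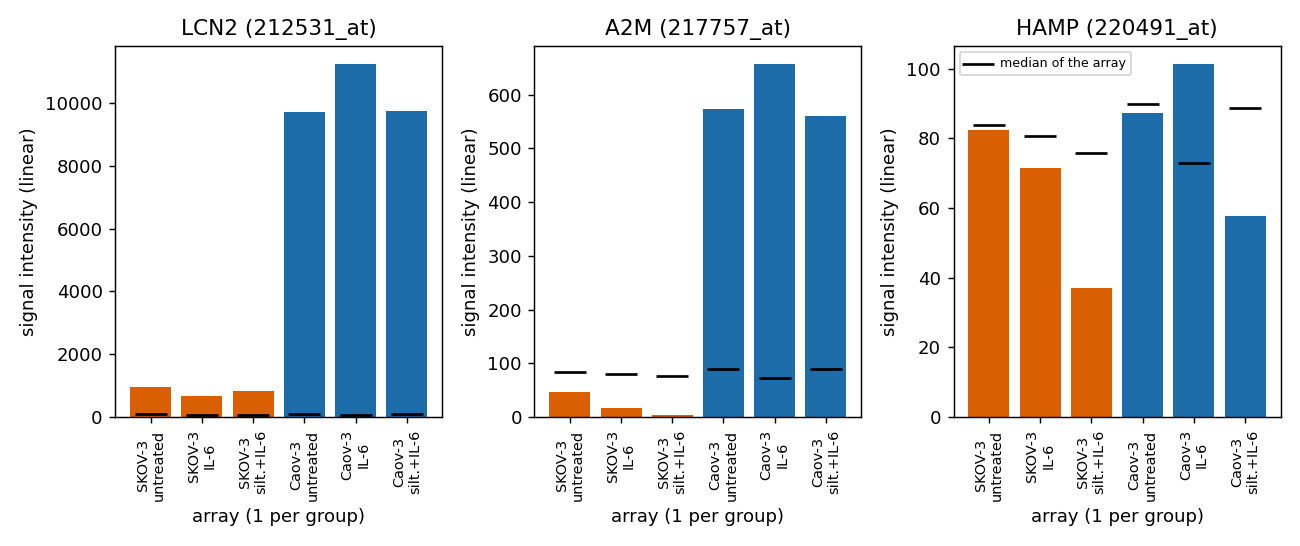
Signal on each array (bars, linear axes from 0) of LCN2, A2M 217757_at and HAMP, with the median of the array as a black line. LCN2 is above the line on 6 arrays, A2M on the 3 Caov-3 arrays, and HAMP on the Caov-3 IL-6 array alone, at 101.5 against 72.8.

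HAMP encodes hepcidin, the hormone that closes the iron exporter ferroportin, and its transcription is a textbook target of IL-6 and STAT3 in hepatocytes. Its probe set 220491_at stayed close to the median, at 82.55, 71.4 and 37.2 in SKOV-3, against 87.4, 101.5 and 57.7 in Caov-3 (untreated, IL-6, siltuximab and IL-6). The Caov-3 IL-6 array alone reached its median, at 1.39 times, and the other 5 were at 0.490 to 0.984 times theirs. The array with siltuximab was the lowest of its line in both, at log2 folds of -0.71 in SKOV-3, against -0.66 in Caov-3 against the IL-6 array. These folds were just above the robust SD of folds of probe sets of like signal (0.631 and 0.555), and over both lines the log2 difference of -0.69 (SE 0.375) did not pass (limma adjusted p 0.997). The lines overlapped (log2 difference 0.32, SE 0.306, limma adjusted p 0.49).

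The stretch of the HAMP promoter shown here holds both of its matches, a STAT motif at bases -93 to -85 and CTGGGA on the opposite strand at -8 to -3, in capitals. It is chr19:35282415-35282527 of GRCh38.p14, plus strand, and ends just before the start of HAMP (chromosome 19, 35282528 to 35285143).
HAMP: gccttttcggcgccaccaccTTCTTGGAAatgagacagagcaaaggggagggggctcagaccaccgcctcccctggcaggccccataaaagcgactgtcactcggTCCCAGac

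CP encodes ceruloplasmin, the copper-carrying ferroxidase of plasma (chromosome 3, 149162414 to 149221829), and all 4 of its probe sets were below the median on every array. Probe set 227253_at was the steadiest, at 44.6, 44.95 and 49.6 in SKOV-3, against 70.1, 64.6 and 64.0 in Caov-3, and its lines did not overlap. Probe set 204846_at was at 3.004, 2.61 and 5.17 in SKOV-3, against 17.9, 27.5 and 10.4 in Caov-3, again without overlap. Neither passed the test, with log2 differences of 0.39 (SE 0.309, limma adjusted p 0.394) and 0.76 (SE 0.268, limma adjusted p 0.0737, size 0.18 to 2.03 over the alternatives). Probe set 1558034_s_at was at 3.36, 22.0 and 5.41 in SKOV-3, against 5.13, 8.15 and 10.05 in Caov-3, and its lines overlapped.

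The fourth CP probe set, 228143_at, was lowest on the IL-6 array of each line, at 64.8, 18.2 and 44.85 in SKOV-3, against 58.5, 17.2 and 57.1 in Caov-3. The log2 difference for IL-6 over both lines was -1.18 (SE 0.384), with an unadjusted p of 0.0213 and a limma adjusted p of 0.674, and its size ran from -0.42 with a pseudocount of the median to -1.74 with a pseudocount of 1. The other 3 CP probe sets were not lowest on both IL-6 arrays. The IL-6 array was lowest in both lines for 3 of the 17 members (this one, FGA 205649_s_at and FGG) and for 12.1% of all named probe sets, and highest in both for 1 member (FGB 216238_s_at) and for 11.2% of all.

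HP encodes haptoglobin, which binds free haemoglobin (chromosome 16, 72054505 to 72061055). Probe set 206697_s_at was at 38.1, 10.9 and 10.6 in SKOV-3 in the same order of treatments, and at 46.9, 10.8 and 17.2 in Caov-3. The untreated array was the highest of each line, at 0.454 and 0.522 times its array's median, and the lines overlapped. The log2 difference for IL-6 over both lines was -1.09 (SE 0.336, unadjusted p 0.017, limma adjusted p 0.674), or -0.33 and -1.87 with those other pseudocounts. In each line the fold of IL-6 over untreated, -0.98 in SKOV-3, against -1.20 in Caov-3, was about the robust SD of probe sets of like signal (1.06 and 1.04).

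FGA, FGB and FGG encode the alpha, beta and gamma chains of fibrinogen, the precursor of the fibrin clot. The 3 genes lie side by side on chromosome 4 of GRCh38.p14, FGB at 154562980 to 154572807, FGA at 154583126 to 154590742 and FGG at 154604136 to 154612656, and in hepatocytes they are induced together by IL-6. The promoter stretches below are shown because each holds CTGGGA on its own strand, which the 3 genes share. The matches are in capitals, and besides CTGGGA they are a STAT motif in FGA (bases -231 to -223) and, both on the opposite strand, a C/EBP motif in FGB (-30 to -22) and a further CTGGGA in FGG (-42 to -37). The stretches are chr4:154590844-154590992 (minus strand) for FGA, chr4:154562848-154562978 (plus) for FGB and chr4:154612673-154612837 (minus) for FGG.
FGA: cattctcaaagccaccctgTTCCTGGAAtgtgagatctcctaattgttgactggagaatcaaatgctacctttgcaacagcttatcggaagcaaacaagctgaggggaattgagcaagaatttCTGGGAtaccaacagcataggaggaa
FGB: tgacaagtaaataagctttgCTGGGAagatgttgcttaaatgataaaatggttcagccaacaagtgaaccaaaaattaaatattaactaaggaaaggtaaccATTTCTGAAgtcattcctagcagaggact
FGG: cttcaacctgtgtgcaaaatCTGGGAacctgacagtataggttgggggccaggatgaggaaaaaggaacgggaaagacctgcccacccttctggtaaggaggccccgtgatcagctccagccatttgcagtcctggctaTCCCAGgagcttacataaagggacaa

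None of the 6 fibrinogen probe sets reached the median on any array. The FGA probe set 231671_at was at 24.1, 29.35 and 40.5 in SKOV-3, against 62.6, 18.3 and 52.5 in Caov-3. The FGA probe set 205650_s_at was at 6.47, 22.1 and 23.4 in SKOV-3, against 9.04, 49.2 and 12.9 in Caov-3. The FGA probe set 205649_s_at was at 34.5, 0.933 and 3.11 in SKOV-3, against 4.88, 1.185 and 25.4 in Caov-3. The 3 FGA probe sets thus gave no common order of the arrays, and each of their lines overlapped.

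FGB 204988_at was at 45.6, 4.30 and 10.7 in SKOV-3, against 8.765, 16.3 and 7.57 in Caov-3. FGB 216238_s_at was at 8.70, 11.7 and 1.64 in SKOV-3, against 24.5, 31.8 and 22.4 in Caov-3, and its lines did not overlap. It passed the test, higher in Caov-3 by a log2 difference of 0.84 (SE 0.26, 95% interval 0.21 to 1.48, limma adjusted p 0.0476), but at 0.252 to 0.436 times the median in Caov-3, and the call was lost without any 1 of the 6 arrays (adjusted p 0.0952 to 0.238). Its size was 0.73 to 0.92 without 1 array, but 0.21 when the median served as pseudocount and 1.97 when 1 did. Leaving out either line's array of a treatment gave the same size, so those 6 fits are not separate checks. FGG 219612_s_at was at 5.19, 1.49 and 4.98 in SKOV-3, against 34.3, 3.40 and 9.77 in Caov-3, with overlap.

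CRP encodes C-reactive protein, which binds phosphocholine on bacteria and dying cells. Both of its probe sets were below the 20th percentile of the array on all 6 arrays, the only 2 members so low throughout. Probe set 205753_at was at 6.26, 9.86 and 6.404 in SKOV-3, against 4.38, 3.70 and 3.21 in Caov-3, and 37020_at at 8.39, 3.20 and 2.97 in SKOV-3, against 3.40, 2.29 and 4.72 in Caov-3. The 3 Caov-3 arrays were below the 3 SKOV-3 arrays for the first and overlapped for the second, and neither passed the test between lines (limma adjusted p 0.449 and 0.799). The stretch of the CRP promoter shown, for comparison with those above, holds its 1 match, a C/EBP motif (bases -137 to -129, capitals), at chr1:159714698-159714746, minus strand. CRP lies at 159712289 to 159714589 of chromosome 1.
CRP: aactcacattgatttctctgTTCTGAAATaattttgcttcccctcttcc

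Over the members, 3 of 17 probe sets (17.6%) passed the test between lines, all higher in Caov-3 (LCN2, A2M 217757_at and FGB 216238_s_at), where 35.9% of all named probe sets passed. The median log2 difference was 0.17 over the members and 0.02 over all. The 3 arrays of each line did not overlap for 5 members that were higher in Caov-3 and 2 that were lower, where 48.0% of all named probe sets did not overlap (24.3% higher and 23.8% lower in Caov-3). The members' shares were 29.4% higher and 11.8% lower, or 41.2% in either direction.

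**Figure D3:**
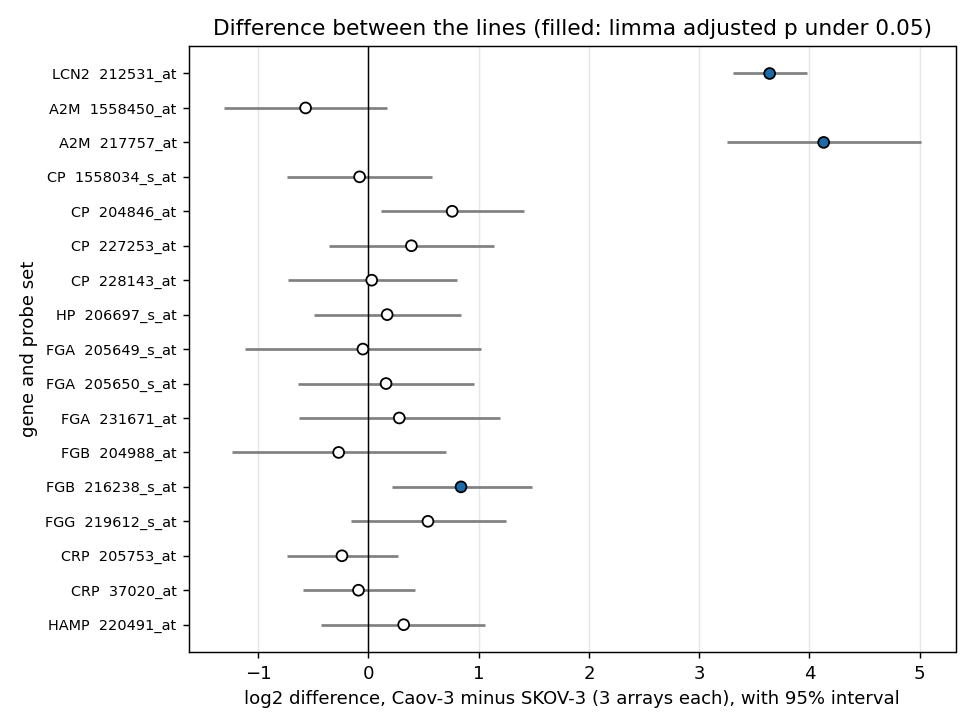
Log2 difference between the lines (Caov-3 minus SKOV-3, 3 arrays each) of each probe set, with its 95% interval from the limma fit, filled where the adjusted p was under 0.05. LCN2 (3.64) and A2M 217757_at (4.13) stand far to the right, and 14 of the 17 intervals belong to probe sets that did not pass.

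The treatments were compared next, since IL-6 is a classical inducer of many acute phase genes in hepatocytes and siltuximab binds it. No member was at least 2-fold apart with its higher array at or above the median in any of the 6 comparisons of 2 arrays of a line. For IL-6 over untreated 2.34% of all named probe sets were so in SKOV-3, against 6.11% in Caov-3, and for siltuximab and IL-6 over IL-6 1.35% and 5.03%. For siltuximab and IL-6 over untreated they were 1.95% and 1.49%. At any level, 3 members in SKOV-3 (CP 228143_at, FGA 205649_s_at and FGB 204988_at) were at least 2-fold lower with IL-6, and in Caov-3 4 were lower (CP 228143_at, HP, FGA 231671_at and FGG) and 1 higher (FGA 205650_s_at), all below the median, where 9.25% and 13.2% of all named probe sets were that far apart. For siltuximab and IL-6 over IL-6 it was no member in SKOV-3 (6.89% of all) and 3 in Caov-3 (11.8%), CP 228143_at and FGA 205649_s_at higher and FGA 205650_s_at lower. For siltuximab and IL-6 over untreated 3 were lower in SKOV-3 (A2M 217757_at, FGA 205649_s_at and FGB 204988_at, where 8.87% of all were that far apart) and none was in Caov-3 (8.56%).

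The median log2 fold of the 17 members with IL-6 was -0.26 in SKOV-3 (-0.04 over all named probe sets) and -0.05 in Caov-3 (-0.01). LCN2 was at a log2 fold of -0.49 with IL-6 in SKOV-3, against 0.21 in Caov-3, and at 0.28 and -0.21 with siltuximab and IL-6 against IL-6. Probe sets of like signal had a robust SD of 0.276 and 0.212 for IL-6 and 0.21 and 0.164 for siltuximab. A2M 217757_at in Caov-3, where it was above the median, was at 0.19 for IL-6 over untreated and at -0.23 when siltuximab came before IL-6 (against IL-6 alone), both within the robust SD (0.334 and 0.281). All Caov-3 values of IL-6 come from the library whose ACTB ratio was low. The part of RNA quality in them was not tested, and the 2 comparisons of a line share the IL-6 array.

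Taking both lines into 1 fit, limma called 0 of 17 members for IL-6 and 3 had an unadjusted p under 0.05 (CP 228143_at and HP lower, FGA 205650_s_at higher), where 0.0% of 41091 probe sets were called and 7.19% had such a p. For siltuximab and IL-6 against IL-6 limma called 0 of 17, with 1 at an unadjusted p under 0.05 (CP 228143_at, log2 difference 0.96), where again 0.0% were called and 3.37% had such a p. The intervals are for a change common to both lines, and through eBayes their widths draw on the variance of other probe sets. For LCN2 the difference with IL-6 was -0.14 (SE 0.169, 95% interval -0.55 to 0.27, limma adjusted p 0.869), whereas for FGB 204988_at the interval ran from -1.78 to 0.60. Both probe sets had IL-6 folds of opposite sign in SKOV-3 and Caov-3, so these intervals do not bound the change in either line.

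**Figure D4:**
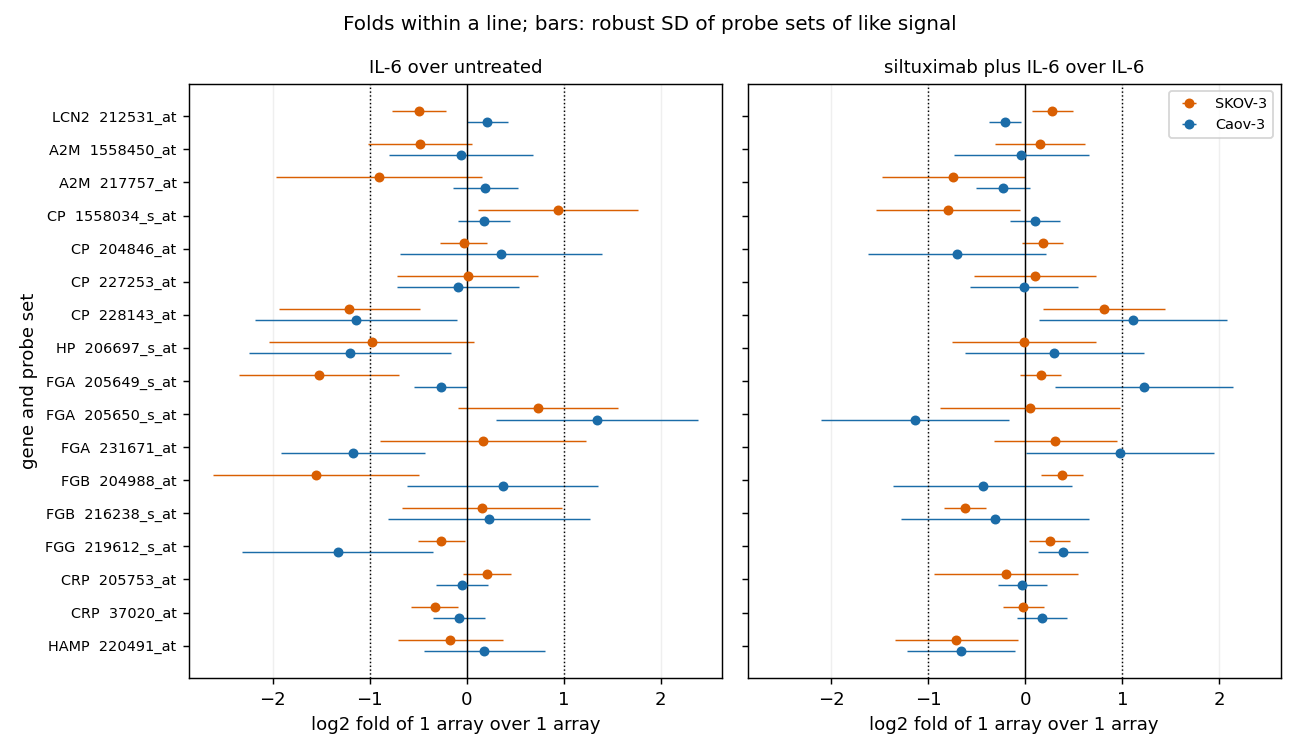
Log2 fold of 1 array over 1 array for each probe set, IL-6 over untreated on the left and siltuximab plus IL-6 over IL-6 on the right, in SKOV-3 (orange) and Caov-3 (blue), with dotted lines at 2-fold. Bars are the robust SD of folds of probe sets of like signal; LCN2 lies at -0.49 and 0.21 on the left and at 0.28 and -0.21 on the right.

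Other acute phase genes differed between the lines in both directions. In the list of further acute phase proteins, 12 of 15 genes were measured, 3 were higher in Caov-3 and 2 lower by limma (25.0% and 16.7%, where 23.4% and 18.8% of all 19775 genes were), with a median log2 difference of 0.32 against 0.06 over all genes. C3, the central complement protein, was at 206, 245 and 123 in SKOV-3, against 5527, 7759 and 5433 in Caov-3 (log2 difference 4.94, SE 0.139, limma adjusted p 7.19e-06). CFB, complement factor B, was at 478, 438 and 418 against 7648, 9112 and 8332 (4.18, SE 0.101, limma adjusted p 5.02e-06). The other way, PTX3, the long pentraxin related to CRP, was at 8069, 9152 and 8264 in SKOV-3, against 116, 131 and 131 in Caov-3 (-5.89, SE 0.0941, limma adjusted p 2.53e-06). SERPINA3, alpha-1-antichymotrypsin, was at 163, 109 and 130 in SKOV-3, against 9.11, 11.1 and 6.01 in Caov-3 (-2.54, SE 0.327, limma adjusted p 0.00141), where the Caov-3 signals lie below the pseudocount and the size ran from -1.03 with a pseudocount of the median to -3.81 with 1.

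The 4 measured paralogs of the members, A2ML1, PZP, HPR and HEPH, were below the median on all 6 arrays. By limma 0 of them were called between the lines, where 23.4% of all genes were higher in Caov-3 and 18.8% lower. With 4 dim genes this count says little. PZP alone had an unadjusted p under 0.05 (log2 difference 0.90, limma adjusted p 0.0866). Among 13 measured hepatocyte markers, 1 was at or above the median on all 3 SKOV-3 arrays (CPS1) and 1 on all 3 Caov-3 arrays (CYP2E1), and 8 were below it on all 6, ALB, APOB, AHSG and F2 among them. TAT was above it on 2 SKOV-3 arrays and did not pass (limma adjusted p 0.773). By limma, 2 of the 13 were higher in Caov-3 and 1 lower (15.4% and 7.69%, where 23.4% and 18.8% of all genes were). These were CYP2E1 (log2 difference 2.08, limma adjusted p 0.00184), TTR (1.30, limma adjusted p 0.0273, below the median throughout) and CPS1 (-1.96, limma adjusted p 0.00169). The SKOV-3 signals of TTR, 10.3 to 30.3, lie near the pseudocount. The summed signal of the 13 was 627 to 916.5 in SKOV-3, against 813.5 to 895 in Caov-3. Leukocyte markers summed to 383 to 770 and 909 to 1008, with 3 of 6 (PTPRC, CD3E and LYZ) below the median on all 6 arrays. CD79A was above it on all 6, at 344, 180.0 and 211 in SKOV-3, against 166, 201 and 149 in Caov-3, LCP1 was above it on 2 SKOV-3 arrays, and neither passed the test between lines (limma adjusted p 0.282 and 0.21), while CD14 was higher in Caov-3 by 2.43 (limma adjusted p 0.000175). Fibroblast and endothelium markers summed to 463.5 to 688 and 4894 to 5883, a difference carried by COL1A1 (269 and 4341 on average) and PECAM1, whereas COL3A1, PDGFRB, VWF and CDH5 were below the median on all 6. The part of other cells in the line differences was not tested.

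The regulators of the acute phase response, each shown by its probe set of highest mean, were mostly above the median. Of 14 measured genes, 13 were above it on all SKOV-3 arrays and 11 on all Caov-3 arrays. That choice of probe set favours high signals, and the same share over all genes was not taken. The IL-6 receptor gene IL6R was an exception in Caov-3, at 60.0, 39.8 and 25.0, below the median on all 3 arrays, against 728, 864 and 813.5 in SKOV-3 (log2 difference -3.84, SE 0.261, limma adjusted p 0.000109). Its partner IL6ST was at 4206, 3857 and 3737 in Caov-3 and 8466, 7344 and 7378 in SKOV-3 (-0.97, SE 0.0675, limma adjusted p 0.000119). Of the 3 measured C/EBP genes, CEBPD was higher in Caov-3 by 1.48 (SE 0.0809, limma adjusted p 5.1e-05) and CEBPB by 0.56 (SE 0.0724, limma adjusted p 0.00145), while CEBPA was at -0.23 and did not pass (limma adjusted p 0.612). Also higher was the interleukin-1 receptor IL1R1 by 2.49 (limma adjusted p 3.76e-05). FOXA2, a hepatocyte and endoderm factor, was at 192, 108 and 173 in SKOV-3, against 4.85, 4.001 and 4.17 in Caov-3 (-3.0, limma adjusted p 0.00075). Here the Caov-3 signals lie below the pseudocount, and the size ran from -1.21 to -4.86 with those of the median and 1. SOCS3 had a log2 difference of -0.97 (lower in Caov-3, limma adjusted p 0.000503), and STAT3 did not pass (limma adjusted p 0.65). STAT3 was at 1330, 2527 and 1463 in SKOV-3, against 2521, 832 and 1254 in Caov-3. Its log2 fold with IL-6 was 0.92 in SKOV-3, against -1.58 in Caov-3, each 1 array over 1 array. These values are of 1 of the 4 STAT3 probe sets, and the others are not shown here. The Caov-3 fold rests on the IL-6 array with the low ACTB ratio, and the part of RNA quality in it was not tested. Of the 14 regulators, 4 were higher and 4 lower in Caov-3 (28.6% each, where 23.4% and 18.8% of all genes were), with a median log2 difference of -0.04. These 8 calls were 6 when all probe sets of a gene were averaged, so not every call holds over all probe sets of its gene. The smallest limma adjusted p of the 14 for IL-6 was 0.674, that of SOCS3, a feedback inhibitor induced by STAT3, at a log2 difference of 0.48. For STAT3 the log2 difference with IL-6 was -0.33 (limma adjusted p 0.902). That fit is for a change common to both lines, so it does not bound the opposite STAT3 folds of the lines.

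Receptors and partners of the member proteins, 12 measured, held 3 genes higher in Caov-3 by limma, the other 9 did not pass, and the median log2 difference was 0.47. The share higher was 25.0%, near the 23.4% of all genes. SLC22A17, a cell surface receptor for lipocalin-2, was at 3.45, 3.465 and 14.1 in SKOV-3, against 367, 344.5 and 352 in Caov-3 (log2 difference 3.98, SE 0.315, limma adjusted p 0.000191). Its SKOV-3 signals lie below the pseudocount, which sets the size of the difference, from 1.98 with a pseudocount of the median to 5.73 with 1 (limma adjusted p 0.000224 and 0.00043). SLC40A1, ferroportin, the target of hepcidin, was at 23.5, 36.6 and 44.2 in SKOV-3, below the median, and at 1265, 1239 and 1336 in Caov-3 (4.67, SE 0.199, limma adjusted p 2.34e-05). ITGA2B, a chain of the platelet fibrinogen receptor, was at 24.8, 70.7 and 36.7 against 233, 193 and 193 (1.93, SE 0.349, limma adjusted p 0.00601, size 1.04 to 2.33 with the other pseudocounts), while its partner chain ITGB3 was below the median on all 3 Caov-3 arrays. LRP2, an endocytic receptor, was at 70.7, 62.4 and 22.8 against 71.6, 92.4 and 99.2 and did not pass (limma adjusted p 0.256).

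**Figure D5:**
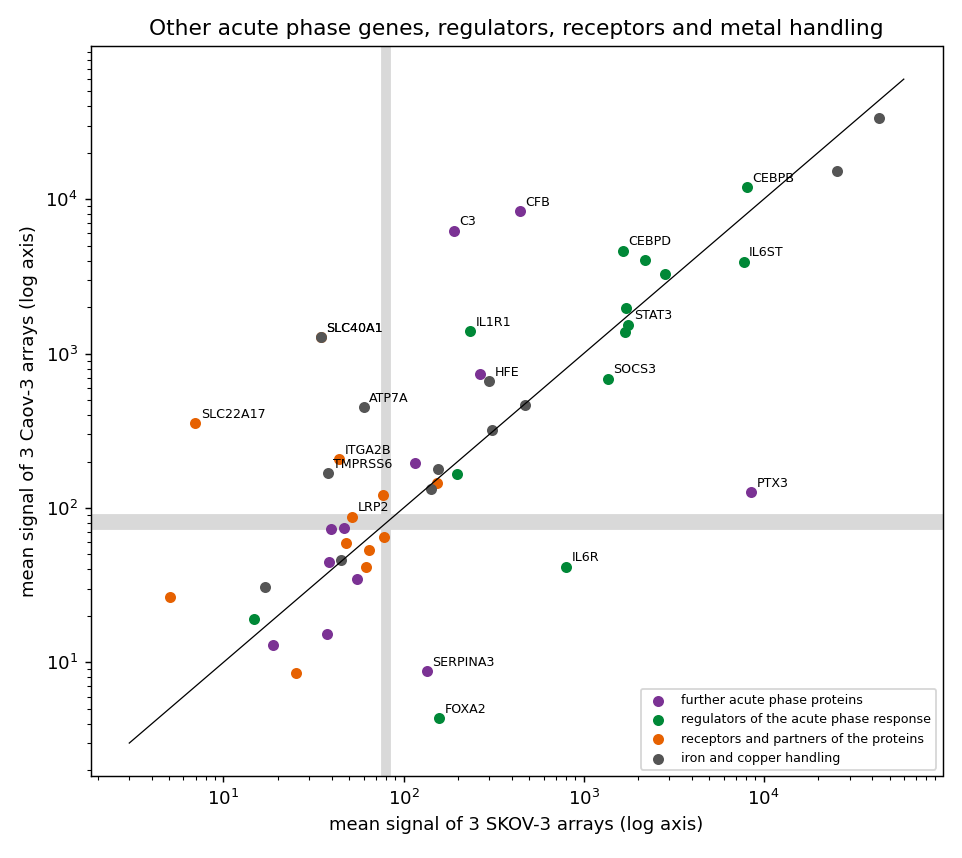
Mean signal of 3 SKOV-3 arrays (horizontal) and 3 Caov-3 arrays (vertical), log axes, of the genes of 4 lists, 1 probe set a gene, with the line of equal signal and grey bands for the array medians. SLC40A1, SLC22A17, C3 and CFB lie above the line, and IL6R, SERPINA3 and FOXA2 below it.

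The genes whose pattern over the 6 arrays lay nearest to that of LCN2 were ADGRG1, an adhesion receptor, PCDH7, a protocadherin, and USP51, a ubiquitin protease. Their centred log2 values differed from those of LCN2 by a root mean square of 0.0607, 0.0794 and 0.0948 (Pearson r = 0.999 for each over 6 arrays of 2 lines). ADGRG1 was at 147, 108 and 131 in SKOV-3, against 1577, 2059 and 1624 in Caov-3. PCDH7 was at 357, 287 and 308 against 4272, 4681 and 4247. USP51 was at 9.945, 2.57 and 6.94 against 313, 303 and 261. The SKOV-3 signals of USP51 lie below the pseudocount, so its nearness to LCN2 depends on the pseudocount. In Caov-3 only ADGRG1 of these genes kept the order of treatments of LCN2. The genes were picked for nearness on these same values, so a like order is not a separate result. Nearest to A2M 217757_at were SV2A, a synaptic vesicle protein, NRCAM, a neuronal adhesion protein, and TNFRSF11B, osteoprotegerin, at 0.161, 0.162 and 0.188 (r = 0.997, 0.999 and 0.996). All 6 points share the same arrays and fall into 2 clusters, 1 per line, so that r describes the gap between the lines.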

How the data were processed

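Signals of 6 Affymetrix U133 Plus 2.0 arrays were used as deposited. They are intensity values that the authors made with MAS5 in Affymetrix Expression Console, per the submitters' processing notes, scaled to a common trimmed mean. Their versions are not given in these sources, and no detection calls were used. Probe sets were named from the platform annotation, and those with several symbols were left out.

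A pseudocount of 17.06 was added before log2. All 41091 probe sets with 1 symbol, without a filter, were fitted to line and treatment with limma 3.58.1 (R 4.3.3), with eBayes and Benjamini-Hochberg adjustment (threshold 0.05), which left 2 residual degrees of freedom. The spread is that between arrays of 3 treatments, and nothing in the labels gives separate cultures per array beyond the pooled flasks. With 1 array a group, differences within a line had no test. They were set against 2-fold with the higher array at or above its median, and against the robust SD (1.4826 times the median absolute deviation) of folds in 10 groups of probe sets by signal. The code was tested on simulated data for the difference between lines only, with changes put into probe sets of above-median mean. That test covers neither the treatment comparisons nor the dim probe sets.

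Named were all members, in each list the 4 genes of largest difference between lines among those at or above the median on at least 2 arrays, always STAT3, IL6ST, IL6R, SOCS3, CEBPB and CEBPD, and the 3 genes nearest in pattern to LCN2 and A2M 217757_at. Markers below the median, paralogs, CEBPA, ITGB3, TFRC, FTL, ALB and TTR were named after their values were seen. Members and lists were chosen with earlier results of these data known. Other pseudocounts, normalizations, filters, blocks and fold thresholds, and leaving out each array, were tried. Tables were made with Python 3.11.15, numpy 2.4.6, pandas 2.3.3 and scipy 1.17.1, and figures with matplotlib 3.10.9.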

Additional observations from a re-analysis of the deposited data

Results flagged for a closer look

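LCN2 moved in opposite directions in the 2 lines in both steps of the treatment. Its log2 fold with IL-6 was -0.49 in SKOV-3, against 0.21 in Caov-3, and with siltuximab before IL-6, against IL-6, it was 0.28 in SKOV-3, against -0.21 in Caov-3. The robust SD of folds of probe sets of like signal was 0.276 and 0.212 for the first step and 0.21 and 0.164 for the second. Each value is 1 array over 1 array, the steps of a line share the IL-6 array, and the difference between the lines was not tested.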

How the results depend on the processing

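LCN2 and A2M 217757_at passed the test between lines under every alternative run. The count of members called was 3, and 2 without any 1 array; it was 4 without the treatment block, where CP 204846_at passed. FGB 216238_s_at lost its call under 9 of 12 alternatives (adjusted p 0.034 to 0.238). Leaving out either line's array of a treatment gave the same size, so these alternatives are not all separate. With no level asked of the higher array, 3 members were at least 2-fold apart for IL-6 over untreated and 3 for siltuximab and IL-6 over untreated in SKOV-3, and 5 and 3 for IL-6 over untreated and siltuximab and IL-6 over IL-6 in Caov-3. At a threshold of 1.5, 1 member (HAMP) passed for siltuximab and IL-6 over IL-6 in Caov-3. Differences between lines that turned direction had passed no test: CP 228143_at was at -0.07 with quantile normalization and 0.0 with cyclic loess, and FGA 205649_s_at at 0.09 with a pseudocount of 1. Leaving out 1 array at a time gave -0.26 to 0.20 for CP 1558034_s_at, -0.08 to 0.11 for CP 228143_at, -0.61 to 0.55 for FGA 205649_s_at, -0.14 to 0.45 for FGA 205650_s_at, -0.06 to 0.61 for FGA 231671_at, -0.73 to 0.23 for FGB 204988_at and -0.19 to 0.03 for CRP 37020_at, and for LCN2 with IL-6 -0.43 to 0.16 (0.09 without the SKOV-3 untreated array and 0.16 without the SKOV-3 IL-6 array). In the fit without the SKOV-3 IL-6 array, IL-6 rests on the Caov-3 IL-6 array alone, whose ACTB ratio was low. The fit without the Caov-3 IL-6 array rests on that of SKOV-3 alone. Counts of probe sets called for treatment in such fits are therefore not given. The cause of the shifts when an array was left out was not tested. The 6 calls among regulators with all probe sets averaged, against 8, were the one change in a list's count. The other pseudocounts for list genes were chosen after seeing the data. They ended no call of a list gene that the naming rule picked. For TTR, TFRC and FTL, named after their values were seen, they were not checked. The fit matched the arrays of the 2 lines by treatment, and the labels give no replicate numbers to pair them by.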

Other observations

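Among genes of iron and copper handling, 12 measured, 4 were higher in Caov-3 and 2 lower by limma (33.3% and 16.7%, where 23.4% and 18.8% of all genes were). Besides SLC40A1, they were TMPRSS6, a protease that restrains hepcidin (26.2 to 55.4 in SKOV-3, all below the median, and 140 to 190 in Caov-3; log2 difference 1.77, SE 0.342, limma adjusted p 0.00798; 0.91 to 2.17 with other pseudocounts), HFE (1.08, limma adjusted p 0.00209) and the copper transporter ATP7A (2.65, limma adjusted p 0.0122; 1.66 to 3.09 likewise). ATP7A spread widely within both lines, at 15.3, 88.9 and 76.1 in SKOV-3 and 613, 214 and 521 in Caov-3. The transferrin receptor TFRC was lower in Caov-3 by a log2 difference of -0.75 and ferritin light chain FTL by -0.39.

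Of 8 proteins whose plasma level falls in the acute phase, 7 were below the median on all 6 arrays, ALB (albumin) and TTR (transthyretin) among them. By limma 2 of the 8 were higher in Caov-3 and 0 lower (25.0% and 0.0%, where 23.4% and 18.8% of all genes were). They were RBP4 and, below the median, TTR (log2 difference 1.30, limma adjusted p 0.0273). TTR was at 30.3, 11.4 and 10.3 in SKOV-3, against 61.7, 68.75 and 63.7 in Caov-3. Its size was not checked with other pseudocounts. RBP4, the retinol carrier, was at 27.7, 65.6 and 49.9 in SKOV-3, below the median, and at 1045, 1319 and 1202 in Caov-3, above it (log2 difference 4.26, SE 0.194, limma adjusted p 2.88e-05).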
